A study of Homo sapiens with 4 samples.

Results

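The activity of 6962 short DNA elements of the FAM13A locus was read from a massively parallel reporter assay in which every element sat in a plasmid with the simian virus 40 (SV40) promoter, a strong promoter. Members were chosen from the plasmid counts alone: a tag needed at least 10 reads in the plasmid library, and an element needed at least 10 such tags. Of 7270 oligonucleotides in the series, 6962 (95.8%) met this rule and 308 did not. An element is 1 allele of 1 variant, in 1 of 3 windows (named L, C and R) and 1 of 2 orientations (named F and RC). The elements carried 606 single-base variants between positions 89528529 and 90116697 of chromosome 4 (hg19), a span of 588 kb. Gene models of that build were not used here, so no exon, intron or untranslated region is assigned to an element.

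Both groups used here came from the same plasmid pool, made from oligonucleotides of a 244K Agilent array in the pGL4.10M2 reporter backbone. The SV40 input group is PCR product of the plasmid pool itself, taken without transfection. The SV40 RNA group is reporter mRNA of Beas-2B cells harvested a day after nucleofection with that pool, reverse transcribed and amplified. There was 1 library per group and thus no repeat of the transfection. No test was run, and every error given is a standard error (SE) over tags. Beas-2B (BEAS-2B) is an established human bronchial epithelial line, immortalised with an adenovirus and SV40 hybrid virus. It is 1 line in culture, and a plasmid reporter leaves out the native chromatin.

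Variants of the FAM13A locus are associated with chronic obstructive pulmonary disease (COPD) and lung function. An enhancer is a stretch of DNA that raises transcription from a promoter, and a silencer lowers it; classical enhancers are defined by acting in either orientation. A strong promoter such as that of SV40 gives high basal transcription, so elements that lower it can be seen as well as those that raise it. In this kind of assay each element is linked to many transcribed barcode tags, and the abundance of a tag in RNA is set against its abundance in the plasmid pool.

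What was counted is the tag, an 11-base barcode, and the tags below show what a high and a low element look like. For each allele of the 4 highest and the 4 lowest constructs (a construct being the 2 alleles of a variant in a window and an orientation) the tag with the middle ratio of that allele is printed in lower case, with no base singled out. The element sequences themselves were not used here. Among high constructs, cgcgaagtaca had 22 plasmid reads and 240 RNA reads, while agggtaattca had 42 and 552. Among low constructs, aataggcgcat had 95 plasmid reads and 4 RNA reads, and cgtggtcacca had 64 and 2. The 8 middle tags of the high constructs had 117 to 552 RNA reads from 11 to 42 plasmid reads. The 8 of the low constructs had 0 to 4 RNA reads from 18 to 95 plasmid reads. These constructs were picked for their ratio and their RNA level, so the gap in RNA reads follows from the choice.
rs2869974 window C orientation F allele C: cgcgaagtaca
rs2869974 window C orientation F allele T: ggcgctagtaa
rs1398940 window L orientation F allele A: atcttgctcta
rs1398940 window L orientation F allele G: agggtaattca
rs2869974 window R orientation F allele C: ctagcaattcg
rs2869974 window R orientation F allele T: cgattgaggtg
rs7674369 window R orientation RC allele A: acgtagtaggt
rs7674369 window R orientation RC allele G: aacaacaggtc
rs2125409 window C orientation RC allele G: aataggcgcat
rs2125409 window C orientation RC allele T: atgcggtacag
rs60107549 window L orientation F allele A: tattgagcact
rs60107549 window L orientation F allele T: acgctataggg
rs73842243 window L orientation F allele C: cgtggtcacca
rs73842243 window L orientation F allele T: acggactaagt
rs34624010 window C orientation F allele A: ttctagctcgt
rs34624010 window C orientation F allele G: attgttaggct

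Reads summed to 26557676 for the plasmid and to 24504694 for the RNA. Of 218526 tags, 192818 (88.2%) passed, with medians of 92 input and 64 RNA reads, and 16165 of those (8.38%) had 0 RNA reads. An element had a median of 29 passing tags, with a range of 10 to 33. Of the 308 oligonucleotides left out, 13 had no passing tag. The 34 elements just outside the rule, with 9 tags, had a median activity of -1.18 and the 48 just inside it, with 10 tags, of -0.97.

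Activity is the mean over tags of the log2 ratio of RNA to input reads, each divided by its library total, minus the median over all elements. Its 2 parts were taken in the same way. The RNA part is the mean log2 RNA level of the tags, and the input part is the mean log2 plasmid level. Activity is the RNA part minus the input part, apart from a small offset between the 3 medians, so a low plasmid level raises it unless RNA is low as well. A construct is the mean of its 2 alleles, and 3439 constructs had both; 84 had 1 allele only and were left out. A construct is called raised or lowered when it lies at least 2-fold above or below the median element.

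Of the 6962 elements, 732 (10.5%) lay at least 2-fold above the median element and 1440 (20.7%) at least 2-fold below it. Of the 3439 constructs, 331 (9.62%) were raised and 664 (19.3%) lowered. Lowered constructs thus outnumbered raised ones relative to the median element. In the 2 quintiles of constructs with the highest plasmid level the order turned, with 63 raised to 42 lowered and 73 to 53. The promoter without an element was not used as a reference, so the calls do not place a construct above or below the promoter alone. The extremes were 20.1-fold above and 10.4-fold below the median element. Which extreme lay further out depended on the summary of the tags: with counts summed over tags, the outermost of the named constructs were at 3.63 (rs1398940) and -5.47 (rs62308744) on the log2 scale. The SD of activity between constructs was 1.01 on the log2 scale and the median SE of a construct 0.26, so the spread between constructs was larger than the spread expected from tags. Of the raised constructs, 140 lay within 1 SE of the 2-fold limit, as did 201 of the lowered. At 4-fold, 59 constructs (1.72%) were raised and 158 (4.59%) lowered, and at 8-fold 18 were raised and 8 lowered.

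In the RNA part too, 218 of the raised constructs (6.34% of all) lay at least 2-fold above the median element, and 585 of the lowered (17%) at least 2-fold below. The RNA part of 33 raised constructs was at or below the median element, and that of 24 lowered ones at or above it. The RNA part spread over 48.7-fold between the 5th and 95th percentile of constructs, the input part over 11.2-fold and activity over 9.44-fold. Across the 3439 constructs, which share the libraries and in part their sequence, the RNA and input parts had a Pearson's r of 0.83 (Spearman's coefficient 0.84). For activity, r was 0.80 with the RNA part and 0.32 with the input part.

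The 2 alleles of a construct are separate oligonucleotides with separate tags that differ by 1 base, and their activities were correlated. Pearson's r between them over 3439 constructs was 0.83 for activity (Spearman's coefficient 0.80), 0.92 for the RNA part and 0.94 for the input part. Both alleles were past 2-fold in 214 of the 331 raised constructs and in 504 of the 664 lowered. The alleles lay on opposite sides of the median element in 0 raised and 3 lowered constructs. A call rests on the mean of both alleles, which by itself leaves little room for opposite sides, so that count does not measure how alike they are. Both libraries were shared by the alleles, so this likeness covers the tags and not the transfection.

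The highest constructs lay at rs2869974 (position 89937076) and rs1398940 (89937184), 108 bp further on. For rs2869974 in window C, orientation F, the 22 tags of the C allele held 11 to 63 input reads (median 25) and 58 to 838 RNA reads (median 324.5). The 19 tags of the T allele held 10 to 76 input reads (median 22) and 46 to 700 RNA reads (median 267). No tag of either allele was without RNA. Activity was 4.42 ± 0.22 for C and 4.24 ± 0.28 for T, and 20.1-fold above the median element for both together (4.33 ± 0.18, 41 tags). The RNA part was 6.59-fold above the median element and the input part 2.93-fold below it, so both parts carried the ratio.

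The neighbouring windows showed the same stretch. Window R of rs2869974 in orientation F stood at 3.95 ± 0.31 and window L of rs1398940 at 4.18 ± 0.33, with RNA parts of 2.38 and 2.50 and input parts of -1.51 and -1.62. Window L of rs2869974 was lower, at 1.53 ± 0.36, with an RNA part of -0.15. Windows C and R of rs1398940 stood at 0.90 ± 0.22 and -0.52 ± 0.21. In orientation RC the 3 windows of rs2869974 stood at -2.13 (L), -1.41 (C) and -0.61 (R), and window L of rs1398940 at -1.42, so the DNA that was high in orientation F was below the median element when turned round. Window R of rs1398940 in orientation RC was raised, at 1.22 ± 0.20.

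The 15 highest constructs among the 149 raised in both alleles and in the RNA part came from 13 variants and ranged from 8.58-fold to 20.1-fold above the median element. They averaged 22.6 to 81.2 input reads per tag, and their RNA reads per tag averaged 161 to 421. Beyond rs2869974 and rs1398940 they included rs7674369 at 89872176 (window R, orientation RC), where 28 tags gave 3.78 ± 0.23 and every tag had at least 71 RNA reads. For rs10030965 at 89901415 (window R, orientation RC) the activity was 3.65 ± 0.33, with 3.13 for the lower and 4.17 for the higher allele. For rs10019681 at 89832532 (window C, orientation RC) it was 3.54 ± 0.22 over 53 tags. Others were rs10516826 (3.52), rs2972021 (3.51), rs2924941 in windows L (3.45) and C (3.38), rs6814344 (3.23), rs9996559 (3.20), rs11737016 (3.20) and rs6532091 (3.10). The input part lay at least 2-fold below the median element in 13 of the 15.

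The 2 exceptions were rs13113298 and rs11737016, the second with an input part of -0.92, close to the limit. At rs13113298 (position 90025750, window R, orientation RC) the input part was -0.23 and the RNA part 3.03, the highest RNA part of the 15, and activity was 10.0-fold above the median element (3.32 ± 0.12, 60 tags). Its C allele had 103 to 981 RNA reads per tag (median 388.5) from 12 to 178 input reads, and its T allele 80 to 1340 (median 294.5) from 12 to 195. Window C of rs13113298 in that orientation was at 1.11 and window L at -0.87, while orientation F gave 0.85, -0.97 and -0.24 in windows C, L and R.

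Among the 88 constructs raised in both alleles and in the RNA part whose input part was within 2-fold of the median element, a group picked after the values were seen, the next highest were rs28540701 at 89898186 (window C, orientation F, 2.70 ± 0.15) and rs1921684 at 89922143 (window C, orientation RC, 2.67 ± 0.15). Window R of rs1921684 was raised too in that orientation, with an RNA part of 2.57, and orientation F gave -0.92 and -1.85 in windows C and R. The list went on with rs7697921 (2.63), rs7697900 (2.60), rs9991039 (2.58) and rs1563688 (2.49). At rs1708670 (89947254, window R, orientation F) activity was 2.27 ± 0.14, from 61 tags with an RNA part of 3.08 and an input part of 0.88.

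In rs7671167 at 89883979 (window L, orientation F), a variant known from association studies of COPD, the pooled activity of 2.46 hid a gap between the alleles. The T allele stood at 3.91 ± 0.27 from 17 tags and the C allele at 1.01 ± 0.16 from 32. Median RNA reads per tag were 217 for T and 371 for C, whereas median input reads were 24 for T and 368 for C. The RNA part was 2.36 for T and 2.99 for C, and the input part lay 2.82-fold below the median element for T and 4.13-fold above it for C, so the gap lay in the input part.

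A stretch from 89908624 to 89908727 was covered by 3 variants within 103 bp, and it was high in orientation F. Window R of rs7697900 (89908624) gave 2.60 ± 0.16, window R of rs7697921 (89908661) 2.63 ± 0.27 and window L of rs11737016 (89908727) 3.20 ± 0.23, with RNA parts of 2.67, 1.65 and 2.22. Their input parts were 0.13, -0.91 and -0.92. Window L of rs7697900 in that orientation gave 0.08 and window R of rs11737016 -0.20, both near the median element. In orientation RC window R of rs7697900 was at -1.57, window R of rs7697921 at -0.13 and window L of rs11737016 at -0.96, and window C of rs7697900 was raised, at 1.03.

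All 3 windows of an orientation were raised for 11 of 1063 variants and orientations (1.03%), 8 of them in orientation F. After rs2869974 the highest means over the windows were those of rs6814344 in orientation RC (6.73-fold above the median element, with 2.76, 3.23 and 2.26 in windows L, C and R), rs72665823 in orientation F (3.74-fold) and rs2609261 in orientation F (3.73-fold). The mean RNA part was also 2-fold or more above for 8 of the 11, and it was 0.58 for rs72665823, -0.10 for rs2609259 and 0.73 for rs710834. The others were rs7695732, rs7697921, rs11722033, rs1513819 and rs4693975. For all 11 the mean of the opposite orientation was available, and it ran from -1.38 to 0.36 with a median of -0.23, below the raised range in every case.

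Of these 11, rs7695732 (89832791), rs72665823 (89833082), rs2609261 (89835485) and rs2609259 (89837808) lay close to each other, all in orientation F. Lowered constructs lay there as well. Between rs2609261 and rs2609259 lay rs1563689 (89837147), with a median activity of -1.67 over 5 constructs of both orientations. Just before rs7695732, rs10019681 (89832532) was lowered in orientation F in windows L (-2.42) and C (-1.93). Activity of rs7695732 in windows L, C and R was 1.90, 1.39 and 2.19 with input parts of -0.66, -0.60 and 0.08. For rs2609261 it was 2.06, 1.41 and 2.23, with input parts of -0.17, -0.39 and -0.89. These 2 variants had input levels within 2-fold of the median element in each window, while rs2609259 had input parts of -2.25, -2.16 and -1.08.

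Lowered constructs were often low in the plasmid pool as well: the input part was at least 2-fold below the median element in 334 of 664, against 19.8% of all constructs, within 2-fold in 277 and at least 2-fold above in 53. The lowest activity was that of rs2125409 at 89850542 (window C, orientation RC), 10.4-fold below the median element (-3.37 ± 0.16, 58 tags). With other summaries of the tags another of the 15 lowest came last, such as rs34624010 (-3.77, against -3.57) with a pseudocount of 0.5, rs73842243 (-4.00, against -3.78) with the median over tags and rs62308744 in window L (-5.47, against -3.93) with summed counts. The G allele of rs2125409 had 0 to 82 RNA reads per tag (median 5) from 22 to 340 input reads (median 133), and the T allele 0 to 34 (median 5) from 25 to 296 (median 120). The RNA part was -2.97 and the input part 0.47. Windows L and R of rs2125409 in that orientation were also lowered, at -2.57 and -1.57.

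Next came rs60107549 at 90112546 (window L, orientation F), 10.3-fold below, with 7438 input reads and 510 RNA reads over 63 tags. Window C of rs60107549 in orientation F stood at -2.69 and window R at -0.79. For rs73842243 at 89738899 (window L, orientation F) activity was -3.22 ± 0.22, and it was -1.71 ± 0.34 in orientation RC, so that window was lowered both ways. For rs13138280 at 90046848, orientation F was lowered in windows L, C and R (-1.81, -3.02 and -2.67), and window L in orientation RC was at 1.35 with an RNA part of -0.84, while window R in RC was lowered (-1.39). For rs80074956 at 90012916 (window C, orientation RC) activity was -2.76 ± 0.18 over 63 tags with 17576 input reads, the most of the 15 lowest.

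Of the 15 lowest constructs among the 445 lowered in both alleles and in the RNA part, 11 were in orientation F. How many of the 445 were in that orientation is not given here. Of all 664 lowered constructs, a wider set called by activity alone, 321 were. The 15 came from 14 variants and ranged from 6.73-fold to 10.4-fold below the median element. In 7 the input part was at least 2-fold below the median element: rs34624010 (-3.10), rs10020832 (-3.03), rs2609264 (-3.02), rs62308744 in windows R (-2.85) and L (-2.75), rs1246642 (-2.79) and rs7671167 in window R, orientation F (-2.78). These 7 had 30 to 124 RNA reads in all, and 1 element, the C allele of rs62308744 in window L, orientation F, had 0 RNA reads over 11 tags with 276 input reads. A tag with 0 RNA reads enters as 1 read, which limits how far below the median element such constructs can fall. The other 3 were rs6815970 (-2.92), rs17014285 (-2.90) and rs28542213 (-2.75), with input parts from -0.49 to 0.19.

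All 3 windows of an orientation were lowered for 35 of the 1063 variants and orientations (3.29%), and the mean RNA part was at least 2-fold below the median element in 33 of them. The lowest means were those of rs1246642 in orientation RC (a mean of -2.59, with -2.41, -2.79 and -2.56 in windows L, C and R), rs2125409 in orientation RC (5.68-fold below), rs13138280 in orientation F (5.65-fold), rs62308744 in orientation F (5.06-fold) and rs6846010 in orientation F (4.88-fold). For rs6846010 at 90020087 the windows differed little, at -2.33, -2.31 and -2.22, although the input part of window L was -0.40 and that of C -1.75. The opposite orientation had all 3 windows measured for only 8 of the 35, with means from -0.96 to 1.05.

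The orientations of a window did not share their activity the way alleles did. In 1633 windows with both orientations measured, r between them was -0.041 for activity (Spearman's coefficient 0.0065) and 0.22 for the RNA part. Of the 167 of these windows raised in orientation F, 4.79% were also raised in RC, where 160 of all 1633 were raised. Of the 269 lowered in orientation F, 21.9% were also lowered in RC, where 282 of all 1633 were lowered. Raised in both orientations were 8 windows, lowered in both 59, and raised in 1 and lowered in the other 80.

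Among the 8 windows raised both ways the highest mean was 1.63, in window L of rs36074996 (90096307), with 2.24 in orientation F and 1.01 in RC. Window C of rs7697781 (90093972) gave 2.12 in orientation F and lay just past 2-fold in RC. Window L of rs10004795 (90000860) gave 1.37 and 1.23, with RNA parts of 3.92 and 1.89. Window L of rs2305934 (89744242) gave 1.12 and 1.14, with RNA parts of 3.22 and 2.84. The other 4, in rs11735482, rs11737182, rs17822121 and rs7682317, had means of 1.02 to 1.17. The lowest of the 59 windows lowered both ways was that of rs73842243, with RNA parts of -3.44 in F and -3.40 in RC. Window R of rs10428504 followed (-2.40 in each orientation, RNA parts -4.04 and -4.55). Window L of rs2085600 came next (-3.04 and -1.67), with RNA parts of -0.87 and -3.54, the first of them not past 2-fold.

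The widest gap between orientations was 6.24 on the log2 scale, in window L of rs10516826 (89918968), which stood at 3.52 in orientation F and -2.72 in RC. The RNA part of that window was 1.76 in F and -1.15 in RC, and the input part -1.70 and 1.63, so both parts turned. Among the largest gaps with RC higher, window C of rs10019681 stood at -1.93 in F and 3.54 in RC, and window R of rs12645240 at -2.69 and 2.62. Of the 15 highest constructs, 14 had an opposite orientation below the median element, and 7 of those were lowered. Over all raised constructs with the opposite orientation measured, the share below the median element was 54.1%, and over all constructs it was 48.2%.

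The plasmid level of the opposite orientation, which has its own tags, differed between raised and lowered constructs. Its median was 132 input reads per tag for raised constructs, 95.1 for those neither raised nor lowered and 42.5 for lowered ones, and RNA reads per tag in that orientation were 96.0, 95.1 and 51.6. For constructs whose own input part was within 2-fold of the median element the medians were 142 for raised, 98.1 for neither and 34.5 for lowered, so the order was the same there. The 15 lowest constructs had an opposite orientation with a median of 6.83 input reads per tag, and 10 of them had no opposite orientation measured in both alleles, whereas the 15 highest had a median of 238 and all 15 were measured. The opposite orientation was measured for 98.8% of raised and 83.0% of lowered constructs. Over 3438 constructs the Pearson's r of activity with the log2 opposite input was 0.37, while that of a construct's own input part with it was 0.065. What part this has in the activities was not tested.

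A construct's own plasmid level also moved with the calls. In the quintile of 688 constructs with the lowest input, 49.0% were lowered and 12.8% raised, 25.1% of tags had 0 RNA reads and the median SE was 0.36. In the middle quintile 11.6% were lowered and 7.28% raised, and in the quintile with the highest input 7.70% were lowered and 10.6% raised, with 0.873% of tags at 0 RNA reads and a median SE of 0.17. Of the 59 constructs raised 4-fold, 38 were in the lowest quintile and 0 in the highest. Of the 158 lowered 4-fold, 91 were in the lowest quintile and 13 in the highest. The part of plasmid level in these calls was not tested.

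Windows of the same variant and orientation shared part of their activity. The r was 0.28 between windows L and C (1096 variants and orientations), 0.29 between C and R (1107) and 0.16 between L and R (1098). Between neighbouring variants the likeness ended within a short distance. In the same window and orientation r was 0.35 at 1 to 50 bp (209 pairs of constructs from 38 pairs of variants), 0.21 at 51 to 100 bp and 0.045 beyond that up to 150 bp, and in opposite orientations it was -0.14, -0.019 and 0.046. In that last class, window R of the lower variant and window L of the upper had an r of 0.53 (Spearman's coefficient 0.35, 68 pairs of constructs). Window L of the lower and R of the upper had an r of -0.0024 (Spearman's coefficient -0.0078, 64 pairs). The first is the pair of windows that was high at rs2869974 and rs1398940, which themselves lie in this distance class. Pairs share variants and libraries, so these are descriptions. What the window letters stand for is not given in the sources used here.

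With both orientations joined, few stretches stood out as raised. Variants at most 150 bp apart were joined, which gave 493 stretches with at least 4 constructs, 407 of them with a single variant. Only 1 (0.203%) had a median activity and a median RNA part both at least 2-fold above the median element, rs7695732 (median 1.02, range 0.06 to 2.19 over 6 constructs). That median lay just past the limit, and no stretch was raised (0 of those tested) with an input minimum of 50, without tags at 0 RNA reads, with summed counts, with at least 20 tags or with a gap of 300 bp. In windows L, C and R, rs7695732 was raised in orientation F (1.90, 1.39 and 2.19) but not in RC (0.35, 0.06 and 0.66). In RC its RNA parts were 1.99, 0.84 and 3.24 and its input parts 1.70, 0.84 and 2.64. The stretch at rs10004795 had the highest median activity, 1.23 over 5 constructs, with a median RNA part of 0.48. The next were rs6844490 (0.95), rs3756051 (0.92) and rs7690881 (0.90).

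Lowered stretches numbered 38 of 493 (7.71%), and 23 of these had a median input part at least 2-fold below the median element. The lowest was rs1246642, with a median of -2.48 over 4 constructs that were all lowered, in both orientations of window R (-1.65 in F and -2.56 in RC) and in windows L and C of orientation RC. The others named by rank were rs1513815 at 90099668 (-2.03), rs2446303 at 89826058 (-2.03), rs3796658 at 89708241 (-1.82) and rs13138280 (-1.81). Each of these 4 had at least 1 construct above the median element. Of the 38, 5 joined several variants: rs2904163 with rs2860500 (-1.63, median input part -0.17), rs6532081 with rs6532082 (-1.15), rs11097206 with rs11097207 and rs12645240 (-1.23), rs62306363 with rs4325981 (-1.75) and rs6853480 with rs6828137 (-1.27).

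Along the locus activity changed little on a broad scale. In 24 bins of 25 kb with 63 to 307 constructs each, median activity ran from -0.22 to 0.24, while the quartiles over all constructs were -0.76 and 0.56. The highest medians were those of the bins starting at 89650000 (0.24, quartiles -0.77 and 0.65), 89575000 (0.15) and 89600000 (0.14). The lowest were those starting at 90000000 (-0.22), 89700000 (-0.22) and 89525000 (-0.20). The share of raised constructs ran from 3.13% in the bin at 89525000 to 15.4% in that at 89825000, which holds rs7695732, rs72665823, rs2609261 and rs2609259, with 15.2% at 90075000, against 9.62% of all constructs. Raised in the RNA part too were 7.38% at 89825000 and 12.0% at 90075000, against 6.34% of all constructs, and at 89925000, which holds rs2869974 and rs1398940, it was 10.1%. The share of lowered constructs ran from 12.7% at 89550000 to 28.2% at 89700000, where the median input part was -0.23.

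The 8 listed association variants had 46 constructs, of which 4 (8.70%, against 9.62% of all) were raised and 5 (10.9%, against 19.3%) lowered, with a median activity of -0.031. All 9 called constructs were past 2-fold in the RNA part too. Raised were window L of rs7671167 in orientation F, window C of rs1903003 in orientation F (1.31 ± 0.13), window R of rs2045517 in orientation F (1.21 ± 0.19) and window R of rs2869967 in orientation RC (1.07 ± 0.23). Lowered were windows C and R of rs7671167 in orientation F (-1.86 and -2.78), window C of rs6830970 in both orientations (-2.51 in F and -1.34 in RC) and window C of rs2869967 in orientation F (-1.70). For rs2013701 the 3 windows of orientation F lay between -0.87 and -0.77, and none was past 2-fold, but each was the mean of unlike alleles. The lower and the higher allele stood at -1.59 and -0.16 in window L, -1.63 and 0.10 in C, and -1.56 and -0.07 in R, so 1 allele was past 2-fold below the median element each time. No construct of rs4416442 or rs2609255 was called.

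A high ratio without high RNA was seen in 33 raised constructs. The highest were rs9307058 (89900729, window L, orientation RC, 1.83 with an RNA part of -0.19), rs2924348 (89632910, window R, orientation F, 1.77 and -0.22), rs75140020 (90062555, window L, orientation F, 1.75 and -0.21), rs12643834 (90023790, window R, orientation F, 1.59 and -0.19) and rs2869974 in window L, orientation F (1.53 and -0.15). Their input parts lay between -1.96 and -1.61, so in these 5 the plasmid level carried the call. A low input part follows from how they were chosen, since activity is nearly the RNA part minus the input part.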

How the data were processed

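The authors' deposited table holds whole-number read counts per tag, per the file headers 1 column for each of 4 libraries; the read matching, any filter and the aligner are not given in the sources used here. The SV40 input and SV40 RNA columns were used. No molecular identifiers are named, so reads are not independent molecules. Activity was computed per tag as log2((RNA + 1) / RNA total) minus log2((input + 1) / input total), for tags with at least 10 input reads, and averaged over tags, then over both alleles. With 1 library per group no count model could be fitted, and calls are by size, at 2-fold. Positions are hg19, the build named for this work, and none was converted. Oligonucleotides with a mark in their names (394 of 51 variants) were kept.

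Named constructs are the 15 highest and 15 lowest past 2-fold in both alleles and in the RNA part, the 5 highest whose RNA part was not above the median element, the 5 highest and lowest stretches, the 3 highest and lowest bins and 8 listed variants; further constructs named in the text were chosen after their values were seen. Members and lists were chosen with earlier results of these data known. Code was tested on simulated counts. Python 3.11.15, numpy 2.4.6, pandas 2.3.3 and scipy 1.17.1 were used.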

Additional observations from a re-analysis of the deposited data

How the results depend on the processing

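No paired analysis was possible because each group has 1 library. Counts of raised, lowered, raised in the RNA part too and lowered in the RNA part too were 331, 664, 218 and 585. They were 159, 405, 119 and 358 with an input minimum of 50, which left 2637 constructs, 59, 158, 18 and 139 at 4-fold, and 169, 277, 125 and 243 among the 2049 constructs with an input part within 2-fold, a setting chosen after the data were seen. Without tags at 0 RNA reads, lowered constructs numbered 406, and 96 and 309 were raised and lowered in the RNA part too. With counts summed over tags, 181 were raised and 44 in the RNA part too, and with the median over tags 879 were lowered in the RNA part too. The cause of these last moves was not tested. Raised stretches numbered 0 with an input minimum of 50, without tags at 0 RNA reads, with summed counts, with at least 20 tags and with a gap of 300 bp, and 2 with a pseudocount of 0.5, with the mean tag as reference and with an input part within 2-fold, against 1. Lowered stretches numbered 11, 14, 73, 23, 19 and 7, against 38, with an input minimum of 50, without tags at 0 RNA reads, with the median over tags, with summed counts, with at least 20 tags and with an input part within 2-fold. The correlation between orientations was -0.16 with an input minimum of 1, -0.25 without tags at 0 RNA reads and -0.24 with summed counts, against -0.041. The 30 named constructs were picked for lying far past 2-fold, so that they stayed past it follows largely from the choice. They kept their direction and stayed past 2-fold under each setting in which they could be measured. With an input minimum of 50 that was 1 of the 15 highest (rs13113298) and 7 of the 15 lowest, with at least 20 tags 4 and 11, and without tags at 0 RNA reads 15 and 7, so the highest were mostly not checked at the first 2 settings. With summed counts 29 of the 30 moved by more than 1 SE, by up to 2.72. With an input minimum of 1, 18 of the 30 did, by up to 1.145. There rs62308744 in window L went from -2.75 to -1.61 and rs2924941 in window L from 3.45 to 4.44. Low plasmid counts and the lack of a repeat transfection limit every value.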
